A study of Mus musculus with 8 samples.

Results

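Transcript levels of 31 genes were followed in 8 mouse kidney libraries. The set consists of Rest, which encodes a repressor of neuronal genes, and 30 genes of neurons and neuroendocrine cells that are known elsewhere as its targets. Members were taken by symbol from the deposited counts through their Ensembl IDs, and all 31 were found among the 49315 gene IDs of the tables. Binding of REST was not measured in these libraries, so the name REST target rests on prior knowledge. Messenger RNA came from frozen kidney tissue of 4 samples labelled Control, called wild type in the extraction protocol, and of 4 samples labelled Conditional Knockout, in which Kdm1a is the gene named by the series. The series asks what loss of Kdm1a does to gene regulation in the kidney. A conditional allele is removed only where a recombinase is made. The labels give neither the recombinase and the promoter that drives it, nor the age, sex or strain of the mice, and they name no further allele or treatment. Libraries are called control 1 to 4 and knockout 1 to 4 after the numbers in their labels.

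REST binds a DNA element of about 21 bases, known as RE1, in and around genes of neurons and endocrine cells and holds these genes low in other tissues. It works through corepressors, among them Sin3 proteins with histone deacetylases, and the complex of CoREST (Rcor1) with the demethylase LSD1. LSD1 is the product of Kdm1a and removes methyl groups from lysine 4 of histone H3. In an adult kidney most of the genes described here are known from nerve fibres and from neighbouring neuroendocrine tissue, such as the adrenal medulla, more than from tubule cells.

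RE1-like sequences near the members are shown because RE1 is the element that REST binds. The published RE1 consensus was searched on both strands over 16 positions, with at most 1 mismatch. The positions between its cores could hold any base, and some core positions allowed more than 1 base. In the promoter window, from 250 bases before to 50 bases after the start of each gene (RefSeq, GRCm38.p6), 3 of the 18 members with an entry held a match, against 1.16% of 27025 genes. In the first 500 bases of protein-coding transcripts (GENCODE M21, GRCm38), 10 of 31 members held one, against 3.31% of 21877 genes. A match without any mismatch was present in 6 members and in 0.32% of all genes. Together 13 members had a match in either window. Each printed site runs 5′ to 3′ on the strand given, and capitals mark both conserved cores of the element. The first 5 have no mismatch and lie in untranslated exon sequence near the transcript start, the next lies in coding sequence and the last 2 in promoter windows.
Bdnf, chr2:109676045-109676065, plus strand: tTCAGCACCttGGACAGagcc
Grin1, chr2:25319014-25319034, minus strand: tTCAGCACCtcGGACAGcacc
Scn3b, chr9:40269740-40269760, minus strand: cTCAGCACCacGGACAGtagc
Sez6, chr11:77930902-77930922, minus strand: aTCAGCACCacGGCCAGcgcc
Rundc3a, chr11:102393452-102393472, plus strand: cTCAGCACCtcGGAGAGctcc
Syp, chrX:7638737-7638757, plus strand: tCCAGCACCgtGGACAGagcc
Syn1, chrX:20921130-20921150, minus strand: tTCAGCACCgcGGTCAGagcc
Celsr3, chr9:108825918-108825938, plus strand: tTCAGCACCgtGGGCAGcact
The other members with a match were Syt4, Vgf, Stmn3, Atp2b2 and Chga, the last across an exon junction of its transcript. The Chga match is counted above, although its bases are not contiguous in the genome. A match is a description of letters, and a gene without one in these windows may hold an element elsewhere.

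Total counts were 19524945 to 28544511 per library, and levels are given as counts per 1000000 of the TMM-scaled library size (CPM), on which 1 count stood for 0.0346 to 0.0502 CPM. Kdm1a itself had 110, 112, 120 and 110 CPM in controls 1 to 4 and 94.0, 95.3, 90.9 and 94.2 CPM in knockouts 1 to 4. All 4 knockouts lay below all 4 controls, and the log2 fold change was -0.27 (SE 0.05, adjusted p = 0.0194, edgeR). The call was lost without control 1 or 3 or without knockout 1, 2 or 4 (log2 fold changes of -0.29 to -0.24 over all single libraries left out). Without knockouts 1 and 4 together it was -0.28, with an adjusted p of 0.191. Xist, the transcript of the inactive X chromosome of females, was abundant in control 2, knockout 1 and knockout 4 and low in the other 5 libraries, so 1 control and 2 knockouts carry the female transcript. Genes of kidney tubule cells were present in every library, and 6 of 10 listed were called lower in the knockouts (8.27% of all genes tested). All 10 had negative log2 fold changes. Their summed level was 936 to 2984 CPM in controls and 268 to 1417 CPM in knockouts. The 3 most abundant, Cdh16, Aqp2 and Slc12a1, had mean levels of 493, 433 and 398 CPM in controls and 294, 160 and 74.3 CPM in knockouts, and none of these 3 was called. Genes of the adrenal cortex, a tissue that lies against the kidney, summed to 3282 CPM in knockout 1, 356 CPM in knockout 4 and 186 CPM in control 4, and to 15.5 to 42.1 CPM in the other 5 libraries. Nothing in the labels says whether each library is a separate animal, so p values measure the spread between these 8 samples.

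All 31 members passed the filter on low counts. In the comparison of the 4 knockouts with the 4 controls, 4 members were called higher at an adjusted p under 0.05 (edgeR quasi-likelihood test, adjusted over 18485 genes), namely Syt5, Stmn2, Nefh and Scn3b. That is 12.9% of the members, while 6.61% of all genes tested were called higher. None of the members was called lower, while 8.27% of all genes were. At an unadjusted p under 0.05 the number of members was 15 (48.4%), beside 35.1% of all genes. Fold changes were positive in 26 members and negative in 5, and their median was 0.62 on the log2 scale, beside 0.00 over all genes tested. That median was 0.0026 without knockouts 1 and 4, and 0.39 with the level of adrenal cortex transcripts as a covariate. All 4 knockouts lay above all 4 controls in 2 members, Syt5 and Nefh (9.29% of all genes), and below them in none (9.58% of all genes). In bulk tissue, more cells of a type and more RNA per cell cannot be told apart. These calls depend on single libraries: none of the 4 held when control 1, 3 or 4, or knockout 1, 2 or 4, was left out, 13 members were called without knockout 3 (7.74% of all genes called higher) and 7 without control 2 (18.4%). Over all genes the number called higher moved too, from 1222 with all libraries to 110 without knockout 4 and 3486 without control 2.

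**Figure D1:**
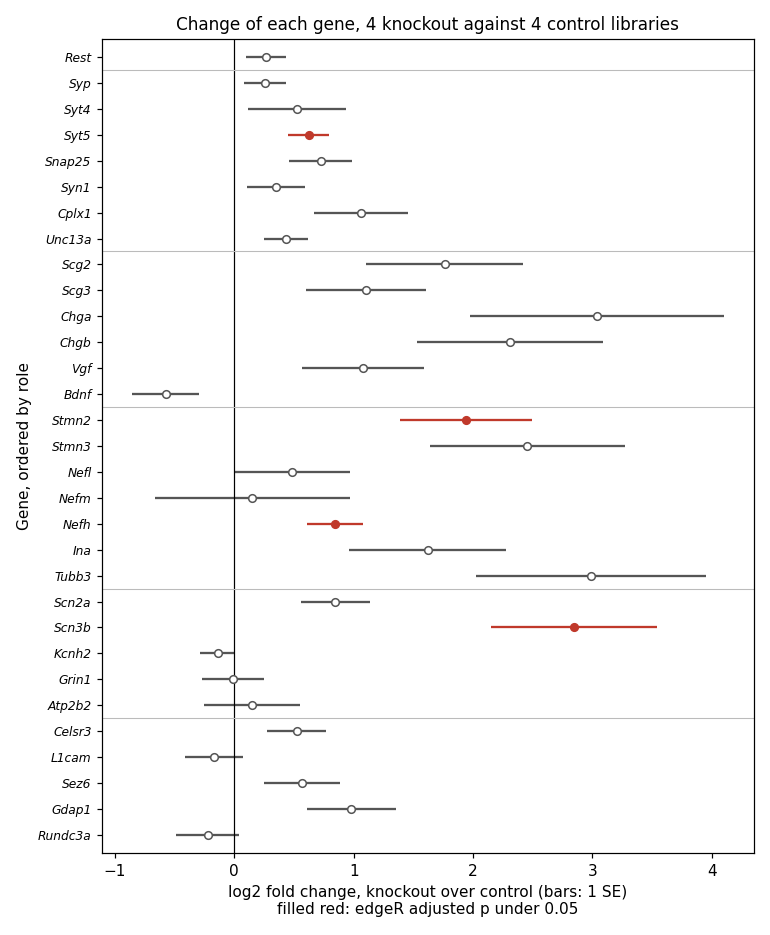
Log2 fold change of each of the 31 genes, knockout over control, with bars of 1 standard error, in role order from Rest at the top. The 4 filled red points are Syt5, Stmn2, Nefh and Scn3b, and the largest values, those of Chga and Tubb3, carry the widest bars.

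The repressor was present in every library. The level of Rest (chromosome 5, 77265491 to 77286432, plus strand) was 74.4, 107, 66.6 and 59.9 CPM in controls 1 to 4 and 99.5, 102, 81.7 and 86.1 CPM in knockouts 1 to 4. The groups overlapped because control 2 was the highest of the 8. The log2 fold change was 0.26 (SE 0.17, adjusted p = 0.289, edgeR), and an exact two-sided permutation test gave p = 0.2, where 0.0286 is the smallest p that 4 against 4 allows. Without control 2 the fold change became 0.46 on the log2 scale and passed the threshold. Per kilobase of exon, Rest had the highest mean control level of the set (10.7 CPM), followed by L1cam (4.60 CPM), and Sez6 had the lowest (0.0998 CPM).

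Of 20 genes for REST cofactors and their enzymes, 2 were called higher (6.61% of all genes tested) and 1, Kdm1a, was called lower (8.27%). Rcor2, a relative of CoREST, was at 25.3, 22.7, 18.4 and 19.9 CPM in controls and at 30.1, 31.5, 31.9 and 29.8 CPM in knockouts, with no overlap (log2 fold change 0.51, SE 0.10, adjusted p = 0.0199, edgeR). The gene for the complex's histone reader Phf21a had a fold change of 0.37 on the log2 scale and missed the threshold, at an adjusted p of 0.0502. The median log2 fold change of the 20 genes was 0.04.

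Among 7 genes of synaptic vesicles and exocytosis, 1 was called higher (6.61% of all genes tested), and every log2 fold change was positive. Syt5 encodes a synaptotagmin, a membrane protein that senses calcium at vesicles (chromosome 7, 4539765 to 4547541, minus strand). Its level was 5.33, 5.47, 6.62 and 3.86 CPM in controls 1 to 4 and 8.996, 7.88, 7.51 and 8.38 CPM in knockouts 1 to 4. Every knockout, including 2 and 3, was above every control (log2 fold change 0.62, SE 0.17, adjusted p = 0.0436, edgeR). Snap25, a SNARE protein of membrane fusion, had 9.09, 7.74, 7.51 and 7.50 CPM in controls and 13.3, 10.3, 8.24 and 20.8 CPM in knockouts, and knockout 3 lay below control 1 (0.72 on the log2 scale, adjusted p = 0.0890). Cplx1, a complexin that clamps the fusion machinery, was at 0.888 to 1.25 CPM in controls and at 2.07, 1.10, 1.45 and 3.92 CPM in knockouts (1.06, adjusted p = 0.0918). Knockout 4 was the highest library for both. Syt4, another synaptotagmin, split the knockouts, with 8.41 and 9.75 CPM in knockouts 1 and 4, 2.96 and 3.36 CPM in knockouts 2 and 3, and 2.95 to 5.66 CPM in controls. The remaining 3 were the vesicle protein Syp, the synapsin Syn1, which tethers vesicles, and the vesicle-priming factor Unc13a. Their log2 fold changes were 0.26, 0.35 and 0.43, none with a call, and for Syp and Syn1 knockout 4 alone stood well above the controls, at 16.9 and 2.34 CPM.

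None of the 6 genes of granins and secreted factors was called, where 6.61% of all genes tested were called higher and 8.27% lower. In 5 of them knockouts 1 and 4 were above the other libraries (7.7% of all genes). Granins are acidic proteins of dense-core secretory granules. Chga (chromosome 12, 102554969 to 102565027, plus strand) had 3.11, 1.90, 3.19 and 6.32 CPM in controls 1 to 4 and 66.8, 2.71, 1.87 and 47.8 CPM in knockouts 1 to 4. Chgb was at 4.96, 5.01, 4.40 and 8.55 CPM in controls and at 54.9, 5.12, 5.16 and 48.3 CPM in knockouts. Knockouts 1 and 4 were far above all other libraries for both genes, and knockouts 2 and 3 were within or below the range of the controls. The log2 fold changes were 3.04 (SE 1.06, adjusted p = 0.0806) for Chga and 2.31 (SE 0.78, adjusted p = 0.0729) for Chgb, and without knockouts 1 and 4 they turned to -0.67 and -0.16. Scg2, a further granin, had 36.1 and 15.7 CPM in knockouts 1 and 4, 4.77 and 3.43 CPM in knockouts 2 and 3, and 3.94 to 5.09 CPM in controls (adjusted p = 0.0951). The same order of pairs was seen in Scg3, a granin-binding protein, with 5.20 and 6.44 against 1.31 and 1.70 CPM. Vgf, a precursor of secreted peptides, had 2.28 and 2.84 against 0.853 and 0.657 CPM. The neurotrophin Bdnf went the other way, at 1.40 ± 0.445 CPM in controls and 0.938 ± 0.169 CPM in knockouts (SD, n = 4 each), with a log2 fold change of -0.58 (adjusted p = 0.176). Bdnf is the member with a perfect RE1 match in which all 4 knockouts lay under the control mean.

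Of 7 cytoskeletal genes, 2 were called higher (6.61% of all genes tested), and every log2 fold change was positive. Stmn2 encodes a stathmin, a protein of growing axons that binds tubulin (chromosome 3, 8509360 to 8561606, plus strand). Its level was 9.59, 39.4, 9.48 and 6.55 CPM in controls 1 to 4 and 66.5, 55.0, 37.3 and 90.4 CPM in knockouts 1 to 4. Control 2 lay apart from the other controls and just above knockout 3, so the groups overlapped (log2 fold change 1.94, SE 0.55, adjusted p = 0.0460, edgeR). Nefh, the heavy neurofilament subunit (chromosome 11, 4938754 to 4948064, minus strand), had 1.02, 1.16, 0.969 and 1.32 CPM in controls and 1.99, 1.81, 1.56 and 2.66 CPM in knockouts. There was no overlap, although these levels rest on 24 to 29 counts per control and 36 to 74 per knockout (log2 fold change 0.84, SE 0.23, adjusted p = 0.0423, edgeR). Tubb3, the tubulin used as a marker of neurons, was at 1.82 to 2.42 CPM in controls and at 25.6, 2.16, 1.32 and 38.6 CPM in knockouts (log2 fold change 2.99, SE 0.96, adjusted p = 0.0645). Stmn3, a second stathmin, had 0.318 to 1.61 CPM in controls and 8.66, 1.46, 1.11 and 13.1 CPM in knockouts, and Ina, a filament protein, had 1.18 to 1.76 and 6.88, 1.31, 1.04 and 8.99 CPM. All 3 showed the split seen in the granins, high in knockouts 1 and 4 only. The light and medium neurofilament genes Nefl and Nefm were high in control 2 as well, at 9.46 and 32.4 CPM, beside 3.19 to 4.5 and 3.59 to 4.18 CPM in the other controls. Their log2 fold changes were 0.48 and 0.15 without a call, and their exons overlap on opposite strands.

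Among the 5 genes of channels, receptors and pumps, 1 was called higher (6.61% of all genes tested). Scn3b encodes an auxiliary subunit of voltage-gated sodium channels (chromosome 9, 40269217 to 40291618, plus strand) and carries a perfect RE1 match near its transcript start. Its level was 0.819, 1.90, 0.767 and 0.455 CPM in controls 1 to 4 and 12.0, 3.46, 1.52 and 11.4 CPM in knockouts 1 to 4. Control 2 exceeded knockout 3, and the other controls lay below every knockout (log2 fold change 2.85, SE 0.70, adjusted p = 0.0311, edgeR). In counts, the controls had 10 to 41 and the knockouts 44 to 316. Scn2a, a pore-forming sodium channel subunit, had 2.70, 5.10, 2.06 and 2.45 CPM in controls and 5.20, 6.63, 4.33 and 6.01 CPM in knockouts (log2 fold change 0.85, SE 0.29, adjusted p = 0.0769). It did not follow the split, since knockout 2 was the highest library. The potassium channel Kcnh2, the NMDA receptor subunit Grin1 and the calcium pump Atp2b2 had log2 fold changes of -0.14, -0.01 and 0.15, with overlapping groups.

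The remaining 5 genes gave no call, where 6.61% of all genes tested were called higher and 8.27% lower. Celsr3, a cadherin needed for axon guidance, had 1.19 to 1.58 CPM in controls and 2.11, 1.56, 1.45 and 2.70 CPM in knockouts (log2 fold change 0.52, adjusted p = 0.167). Gdap1, a protein of the outer mitochondrial membrane, had 0.636 to 1.02 CPM in controls and 1.90, 1.31, 0.761 and 2.52 CPM in knockouts (0.98, adjusted p = 0.0981). For both, knockout 4 was highest and knockout 1 next. Sez6, a membrane protein of dendrites, had a log2 fold change of 0.57 on as few as 8 counts in a library. The adhesion molecule L1cam, which kidney collecting duct also makes, and Rundc3a had -0.17 and -0.22, and knockout 2 had the lowest level of both, 16.4 and 4.07 CPM.

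**Figure D2:**
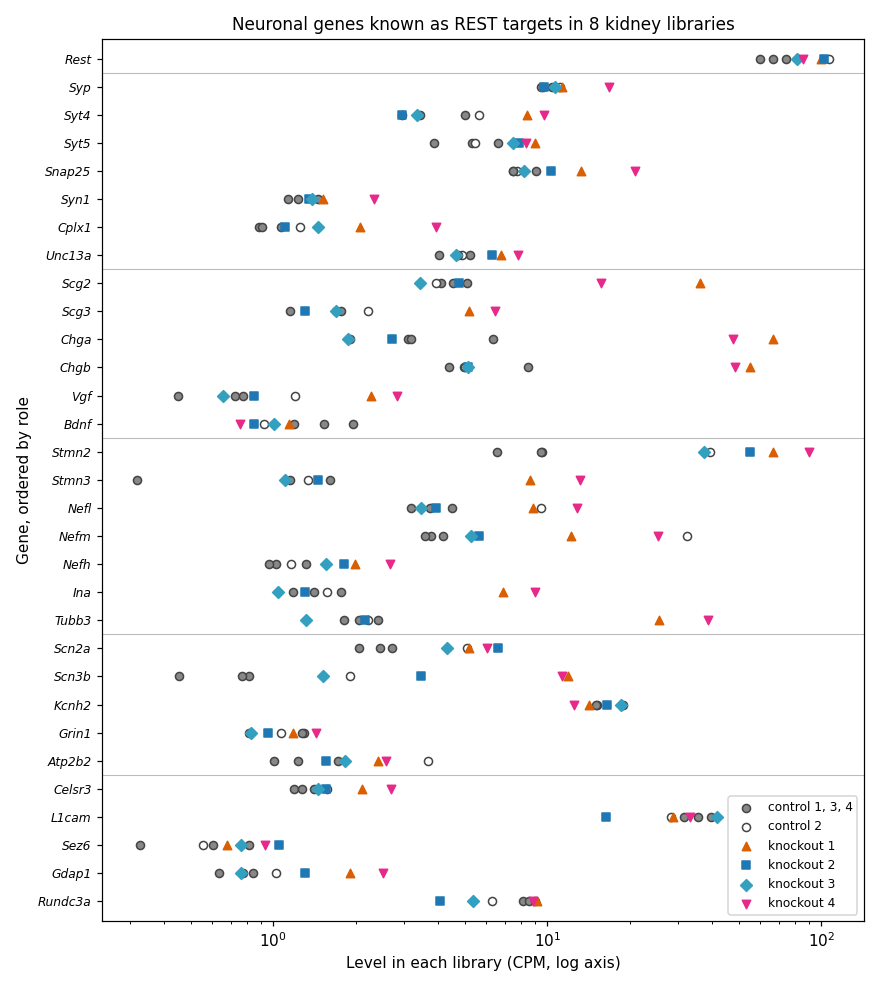
Level of each gene in each of the 8 libraries in CPM on a log axis, 1 row per gene in role order, with grey circles for controls 1, 3 and 4, an open circle for control 2 and a coloured mark for each knockout. Knockouts 1 and 4 (triangles) lie to the right of all others for genes such as Chga, Chgb, Tubb3 and Stmn3, while all 4 knockouts lie to the right of the controls for Syt5 and Nefh.

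Each knockout was then set against the range of the 4 controls, as a description without a test. Knockout 1 was above the highest control for 22 members (28.7% of all genes tested) and knockout 4 for 24 (27.4% of all genes). In knockout 2 the number was 9 (29.7% of all genes), and in knockout 3 it was 4 (21.7% of all genes). Knockouts 2 and 3 thus held no larger share of members above the controls than of genes at large. Below the lowest control were 1 member in knockout 1 (29.1% of all genes), 3 in knockout 2 (30.6%), 5 in knockout 3 (21.5%) and 2 in knockout 4 (29.2%). The median member stood at 1.69, 1.04, 0.991 and 2.31 times its control mean in knockouts 1 to 4. At least 2-fold above the control mean were 12, 3, 1 and 17 members, where all genes tested gave 5.68%, 5.85%, 2.94% and 5.27%.

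**Figure D3:**
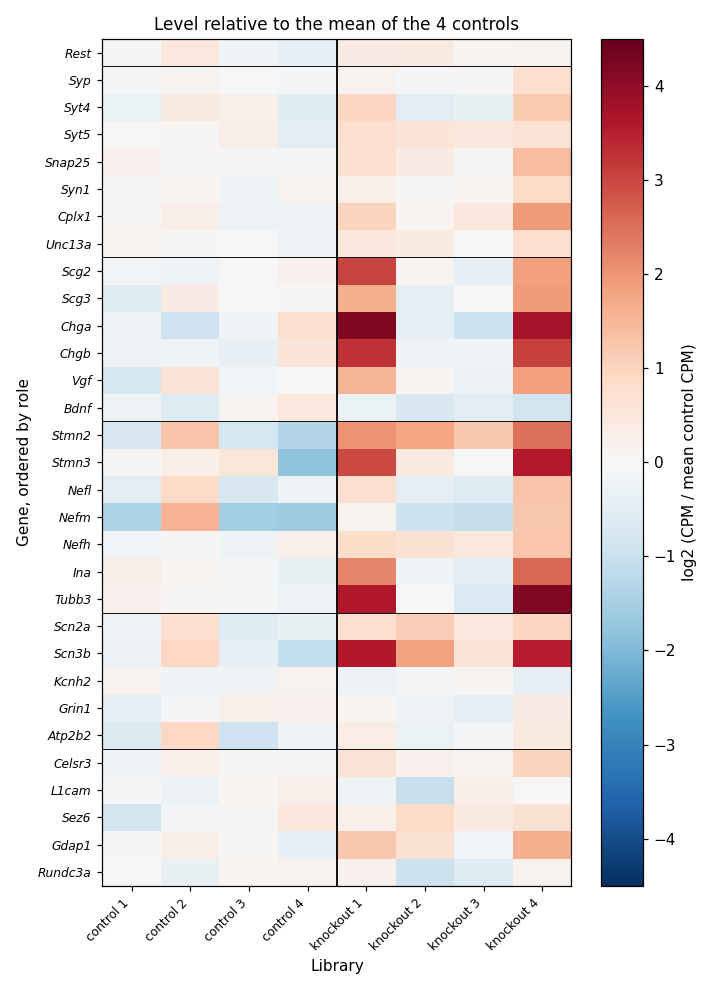
Log2 of the CPM of each gene over its control mean, 31 genes by 8 libraries, red for higher and blue for lower. The red of knockouts 1 and 4 is strong for Chga, Tubb3, Scn3b, Chgb and Stmn3, each over 7 times its control mean in both, and control 2 is red for Stmn2, Nefm and Nefl.

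Knockouts 1 and 4 were next set beside knockouts 2 and 3. The labels do not distinguish these pairs, and no test was made between them. In 25 members both libraries of the first pair were above both of the second, as in 17.1% of all genes tested. In 20 members they were also above all 4 controls, as in 7.7% of all genes. Knockouts 2 and 3 were both above all controls in 2 members, Syt5 and Nefh, as in 14.1% of all genes. The ratio of the pairs' means was largest for Chga (25.0), Tubb3 (18.5) and Chgb (10.0). In the called members it was 1.70 for Stmn2, 1.38 for Nefh, 1.13 for Syt5 and 4.68 for Scn3b. The standard errors of the log2 fold changes were 1.06 for Chga, 0.96 for Tubb3 and 0.78 for Chgb, which were not called. They were 0.70 for Scn3b and 0.17 for Syt5, which were called. Whether the gap between the pairs bears on the calls was not tested.

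Most genes of neuroendocrine and sympathetic cells had the same split. Of 15 genes listed for the adrenal medulla and sympathetic neurons, 11 were higher in knockouts 1 and 4 than in all 6 other libraries. The share of all genes tested was 7.7%. Th, the first enzyme of catecholamine synthesis, was at 0.369 to 1.36 CPM in controls and at 25.6, 0.351, 0.173 and 18.5 CPM in knockouts 1 to 4. Dbh, which makes noradrenaline, was at 0.417 to 1.33 CPM in controls and at 18.7, 0.502, 0.346 and 23.2 CPM in knockouts. Both were thus low in knockouts 2 and 3. The 4 genes without the split were Pnmt, Slc18a1, Penk and Cyb561. Pnmt, which makes adrenaline, had 9.09, 1.07, 6.70 and 5.36 CPM in controls and 21.5, 0.402, 0.588 and 2.52 CPM in knockouts, so knockout 1 was the highest library and knockout 4 lay within the controls. Slc18a1, a vesicular monoamine transporter, fell from a mean of 17.5 to 2.46 CPM and was at 3.42 and 4.07 CPM in knockouts 1 and 4. The list's most abundant genes, Penk, Cyb561 and Npy, did not share one pattern: Penk rose in all 4 knockouts (253 to 323 against 419 to 541 CPM), Cyb561 overlapped fully, and Npy had 34.5, 6.22, 8.62 and 27.9 CPM in knockouts over 3.0 to 4.34 CPM in controls. In the edgeR test 4 of the list's 13 tested genes were higher (Npy, Penk, Prph and Isl1) and 1 was lower (Slc18a1). Of all genes tested, 6.61% were called higher and 8.27% lower. The summed level ran from 302 to 393 CPM in controls and from 496 to 727 CPM in knockouts.

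Adrenal cortex genes also separated knockouts 1 and 4 from the rest, in 10 of 11 genes (7.7% of all genes tested), but in another proportion. Their sum was 9.23 times as high in knockout 1 as in knockout 4, with Cyp21a1 at 694 and 58.7 CPM, Star at 613 and 72.6 CPM and Akr1b7 at 599 and 59.7 CPM. Over the 31 members the same ratio ran from 0.484 (Nefm) to 2.30 (Scg2), and for Th and Dbh it was 1.38 and 0.805. Control 4 had 186 CPM of cortex transcripts, with Chga at 6.32 and Chgb at 8.55 CPM, the highest of the controls for both. With the cortex level as a covariate in the edgeR fit, 0 members were called and the median log2 fold change was 0.39. The share of all genes called higher fell as well, from 6.61% to 3.93%. Schwann cell genes, led by Pmp22, Erbb3 and Mbp, summed to 168 to 187 CPM in controls and 185 to 213 CPM in knockouts. In edgeR 0 of 10 were called, where 6.61% of all genes tested were called higher and 8.27% lower. In 3 of 10, knockouts 1 and 4 were the highest libraries (7.7% of all genes tested). Of 10 genes of the central nervous system, 6 were tested and 1 was called lower (8.27% of all genes tested). This was the most abundant, Aldh1l1, a marker of astrocytes that other tissues make too, which fell from a mean of 53.8 to 12.8 CPM (log2 fold change -2.06, adjusted p = 0.0347, edgeR). Slc17a7 and Neurod1 were next in abundance, at 11.7 to 14.7 and 2.03 to 3.42 CPM over the 8 libraries, and Olig2 had 0 counts in all. The part of adrenal or nerve tissue in the levels of the members was not tested.

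**Figure D4:**
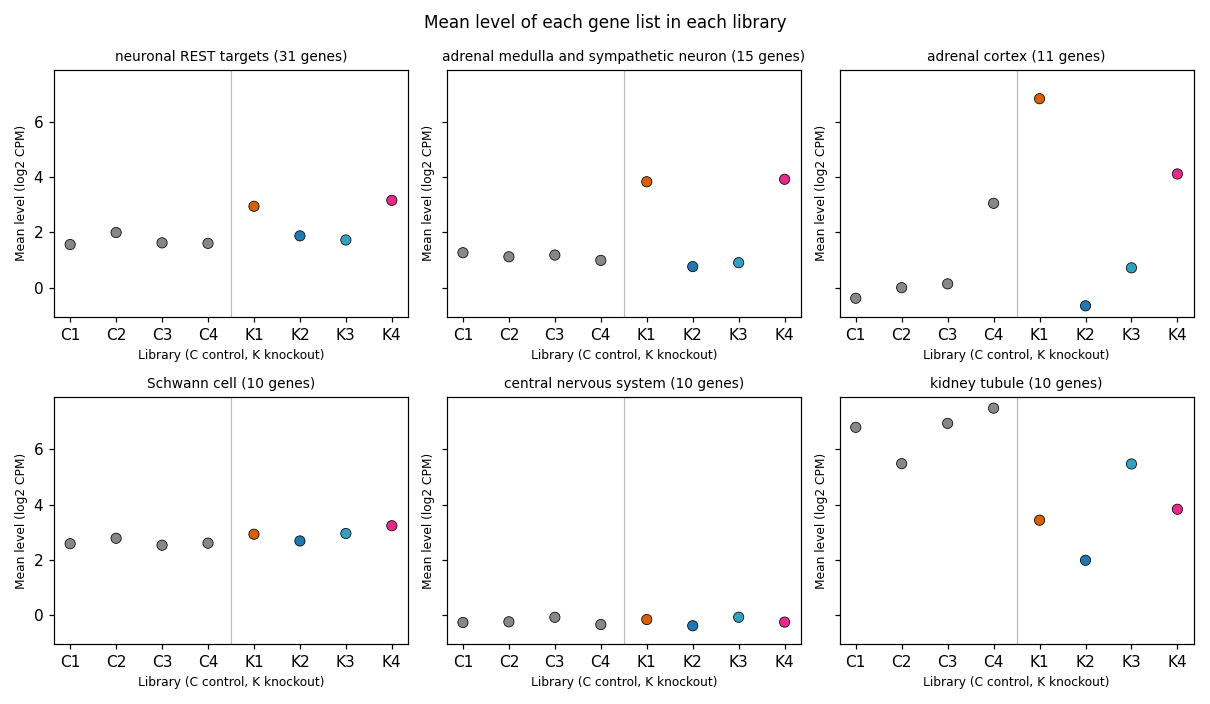
Mean log2 CPM of the genes of 6 lists in each library, controls C1 to C4 in grey and knockouts K1 to K4 in colour. The neuronal REST targets and the medulla and sympathetic genes are highest in K1 and K4, the cortex genes are highest in K1 and lie above the other libraries in K4 and C4, and the tubule genes are lower than in all controls in K1, K2 and K4 and, by a small margin, in K3.

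Because Xist separated the libraries, the members were also compared within each class. Among the libraries with Xist, knockouts 1 and 4 were both above control 2 in 25 members, as in 36.8% of all genes tested, and the median log2 ratio of the group means was 0.67. Among the libraries without Xist, knockouts 2 and 3 were both above controls 1, 3 and 4 in 9 members, as in 27.9% of all genes, and the median log2 ratio was 0.21. The 9 are 29% of the members, close to the share of all genes. They were Rest, Syt5, Cplx1, Stmn2, Nefm, Nefh, Scn2a, Scn3b and Celsr3. The 4 called members are among them, but their calls came from these same libraries, so this is no separate evidence. For Stmn2 this compares 37.3 and 55.0 CPM with 6.55 to 9.59 CPM, and in the libraries with Xist 66.5 and 90.4 CPM with 39.4 CPM. For Chga it compares 2.71 and 1.87 CPM with 3.11 to 6.32 CPM without Xist, and 66.8 and 47.8 CPM with 1.90 CPM with Xist. Stmn2 was therefore higher in the knockouts of both classes and Chga in those with Xist alone. Since the split of the knockouts follows Xist, sex and library cannot be told apart there with 1 control of the class.

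Other neuronal genes described as REST targets were called about as often as genes at large. Of 32 listed, 24 passed the filter, 2 were higher (6.61% of all genes) and 2 were lower (8.27% of all genes), and their median log2 fold change was 0.35. In 12 of the 32, knockouts 1 and 4 were above all other libraries, as in 7.7% of all genes tested. Among these were Elavl3, an RNA-binding protein of neurons, at 3.46 and 10.5 CPM in knockouts 1 and 4 and 0.818 to 1.35 CPM in the others, and Ptprn, a protein of dense-core granules, at 7.43 and 8.38 CPM beside 0.969 to 2.13 CPM. Dcx, a microtubule protein of young neurons, had 15.4, 27.5, 13.0 and 8.32 CPM in controls and 34.9, 43.1, 25.4 and 39.8 CPM in knockouts, with control 2 above knockout 3 as for Stmn2 (log2 fold change 1.16, adjusted p = 0.0453, edgeR). Gjd2, a gap junction protein, rose from 0.6002 ± 0.166 to 1.60 ± 0.696 CPM (SD, n = 4 each; adjusted p = 0.0363, edgeR). Mapk8ip1, a kinase scaffold, fell from 76.2 ± 5.85 to 60.0 ± 5.19 CPM (adjusted p = 0.0294, edgeR). Pcsk2, a protease that cuts granins and prohormones, had 2.04 to 4.0 CPM in controls and 1.56, 0.803, 1.63 and 1.44 CPM in knockouts (log2 fold change -1.14, adjusted p = 0.0387, edgeR). All 4 knockouts were below the controls for Pcsk2, also knockouts 1 and 4 in which the granins were high.

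The exons of 11 members share bases with a neighbouring gene in the annotation, in 9 cases with one transcribed the other way. No source used here says whether reads were counted by strand, so reads of the neighbour may be included for these members. Syt5, Stmn2, Nefh and Scn3b are not among them.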

How the data were processed

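Whole-number read counts per gene were deposited by the authors for 8 libraries, 4 per genotype, with no normalization, per the file headers. The submitters' processing notes name Trimmomatic 0.36, STAR 2.5.2b, featureCounts, Subread 1.5.2, DESeq2 and the build GRCm38. How strand and reads matching several genes were handled is not given in the sources used here. Symbols came from GENCODE M21 (48970 of 49315 IDs).

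Counts were scaled by TMM, filtered with filterByExpr (18485 genes kept) and tested in edgeR 4.0.16 (R 4.3.3) by quasi-likelihood, with all 8 libraries and no covariate. P values were adjusted by Benjamini-Hochberg over all genes tested, and a call is an adjusted p under 0.05. The test was tried on simulated counts. Standard errors (SE) of log2 fold changes were derived from the test, as the absolute fold change over the square root of its F statistic. Levels are CPM on TMM library sizes. RE1 matches were searched in RefSeq promoters and GENCODE transcripts. Members, gene lists and alternatives were chosen with earlier results of these data known, and the comparison within Xist classes was added after the data were seen. All 31 members are named. Of the cofactor and other-target lists, called genes were named (up to 5 by adjusted p), except 1 that is not reported here, and of cell type lists the 3 most abundant genes. Phf21a, Th, Dbh, Pnmt, Olig2, Elavl3, Ptprn and the called medulla genes were singled out after their values were seen. Alternatives were DESeq2 1.42.0 and its size factors, limma-voom (limma 3.58.1) with sample weights, other filters, a replicate block, covariates for Y-linked and adrenal cortex transcripts, and libraries left out. Over the 28 pairs of libraries a chi-square of their counts gave at least 12 per degree of freedom, so none was a copy within sampling noise.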

Additional observations from a re-analysis of the deposited data

Results flagged for a closer look

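In 5 of 62 groups of 4 libraries, 1 library lay far from the other 3 relative to the range of its group, and chance gives about 1 in 20 such groups. Control 2 was high for Stmn2, at 39.4 CPM, and for Nefm, at 32.4 CPM. Control 4 was high for Chgb, at 8.55 CPM, and it was also the control with the most adrenal cortex transcripts. Control 1 was high for Snap25, at 9.09 CPM. Knockout 4 was high for Syn1, at 2.34 CPM.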

How the results depend on the processing

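The 4 members called higher by edgeR (6.61% of all genes) became 11 with DESeq2 (9.36%), 11 with limma-voom (22%), 2 without a filter on low counts (2.85%), 2 with the Y-linked covariate (5.63%), 0 with the adrenal cortex covariate (3.93%), 0 without knockouts 1 and 4 (1 of 19167 genes) and 20 without control 2 and knockout 3 (20.5%), with the share of all genes called higher in brackets. Leaving out 1 library gave 0 to 13 (0.589% to 18.4%). Members called lower became 1 with limma-voom (Bdnf), a fit in which 4241 of all 18485 genes tested were called lower. The median log2 fold change of 0.62 became 0.00 (0.0026) without knockouts 1 and 4. Kdm1a ran from -0.29 to -0.24 with 1 library left out and was -0.28 without knockouts 1 and 4. Rest passed the threshold at 0.40 with limma-voom, 0.46 without control 2 and 0.51 without control 2 and knockout 3, and ran from 0.16 to 0.46 with 1 library left out.

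Of the 18 alternatives, Stmn2 and Scn3b kept their call in 10, and Syt5 and Nefh in 7. Signs changed in members without a call. Without knockouts 1 and 4 the log2 fold change was -0.16 for Atp2b2, -0.67 for Chga, -0.16 for Chgb, -0.35 for Ina, 0.042 for Kcnh2, -0.50 for Nefl, -1.01 for Nefm, -0.11 for Scg2, -0.18 for Scg3, -0.43 for Syt4, -0.31 for Tubb3 and -0.066 for Vgf. With the cortex covariate it was -0.017 for Atp2b2, -0.030 for Nefl, -0.30 for Nefm and -0.015 for Syt4. Grin1 was 0.059 with limma-voom and 0.086 without control 2 and knockout 3. With 1 library left out, values ran from -0.068 to 0.67 for Atp2b2, from -0.15 to 0.13 for Grin1, from -0.35 to 0.032 for L1cam and from -0.50 to 1.66 for Nefm. The cause was not tested for any of these, apart from the fewer samples of the fits that leave libraries out.

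Same-numbered libraries correlated at -0.108, 0.329, 0.228 and -0.059 in their deviations from the group means. Differently numbered ones ran from -0.468 to 0.398. With so few libraries these values cannot tell whether the replicate numbers pair the samples. With the replicate block 3 members were called higher (Scn2a, Scn3b and Stmn2), beside 8.01% of all genes tested. Counting limits the lowest members, with 7 counts for Stmn3 in control 4 and 8 for Sez6 in control 1.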
